A study of Mus musculus with 2 samples.

Results

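The osteocrin gene *Ostn*, the peptide gene *Nppc* and the receptor genes *Npr1*, *Npr2* and *Npr3* were followed through the cell types of the periosteum. These members were 5 of the 31253 genes listed in both libraries, and they were chosen by name as a ligand and receptor family, with their levels across the cell types already known, so those levels are given as a description without a test. Each gene was read as its UMIs (unique molecular identifiers, 1 for each captured transcript) summed over the cells of a type, divided by all UMIs of that type and scaled to 1000000 (CPM).

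Cells came from the periosteum of femurs and tibias of 8-week-old mice and were captured on the BD Rhapsody platform, with 1 library from Prx1 Cre; Ai9/+ mice (control) and 1 from Prx1 Cre; Ai9/+; *Piezo1* fl/fl mice (*Piezo1* fl/fl). Both groups carry the Prx1 Cre transgene, whose *Prrx1* enhancer is active in the limb mesenchyme, and the Ai9 reporter, and as far as the labels say the groups differ by the floxed *Piezo1* alleles alone. The bones were digested with their ends capped in agarose, red blood cells were lysed and Prx1-positive cells were sorted. The labels do not say how many animals made up a library, and with 1 library per genotype every difference between genotypes is a difference between those libraries, with no replicate and no test. All intervals below are 95% intervals that cover counting error only.

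Natriuretic peptides act through receptors of the cell surface. C-type natriuretic peptide, the product of *Nppc*, binds NPR2, a guanylyl cyclase that makes cGMP and is needed for the growth of long bones, while NPR1 is the corresponding cyclase for the peptides of the heart. NPR3 has no cyclase domain and clears the peptides from the extracellular space. Osteocrin, the product of *Ostn* and also called musclin, is a secreted protein of bone-forming cells and muscle that binds NPR3 and is thought to spare the other peptides from clearance.

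In GENCODE vM21 (GRCm38), *Ostn* lies at chr16:27307489-27351212 on the plus strand, *Nppc* at chr1:86666291-86670571 on the minus strand, *Npr2* at chr4:43631935-43651244 on the plus strand, *Npr1* at chr3:90450591-90465866 on the minus strand and *Npr3* at chr15:11839896-11907287 on the minus strand. UMIs were summed over whole genes. Antisense genes that were also counted overlap *Ostn*, *Npr1* and *Npr2*, and each had at most 1 UMI in a library.

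The promoters of *Nppc* and *Npr2* are shown because this ligand and its receptor had contrasting patterns, *Nppc* being found mostly in 1 cell type and *Npr2* in most. Each run holds the 250 bases before the RefSeq transcription start in GRCm38.p6, in the direction of the gene, at chr1:86670574-86670823 (minus strand) for *Nppc* and at chr4:43631685-43631934 (plus strand) for *Npr2*. Capitals mark matches to any of 3 motifs, the TATA box searched as TATAAA, the CCAAT box, and the Runx core searched as TGTGGT. Both strands were searched, and no matches overlapped.
Nppc: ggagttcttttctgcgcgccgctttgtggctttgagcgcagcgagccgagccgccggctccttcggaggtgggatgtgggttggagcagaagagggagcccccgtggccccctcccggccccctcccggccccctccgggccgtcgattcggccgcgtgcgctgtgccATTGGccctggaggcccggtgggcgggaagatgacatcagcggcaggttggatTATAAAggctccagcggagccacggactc
Npr2: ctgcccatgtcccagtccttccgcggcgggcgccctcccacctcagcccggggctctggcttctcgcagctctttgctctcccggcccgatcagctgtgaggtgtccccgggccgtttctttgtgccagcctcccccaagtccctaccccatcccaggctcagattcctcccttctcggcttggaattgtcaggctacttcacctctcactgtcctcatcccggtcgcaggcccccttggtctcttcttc
The *Nppc* run holds TATAAA on its own strand, 29 bases before the start, and CCAAT on the opposite strand (read as ATTGG), 82 bases before it. The *Npr2* run holds none of the 3. GC content was 69.2% for *Nppc* and 64.4% for *Npr2*. Among 27025 promoters of this length, 13.0% held TATAAA, 34.5% CCAAT and 14.2% TGTGGT. A promoter was matched for 4 of the 5 genes, all but *Ostn*. These matches are letters in a window and were not tested as sites.

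There were 6118 barcodes with 28030299 UMIs for the control, and 7469 with 32337308 for *Piezo1* fl/fl. After filters on genes, mitochondrial UMIs and doublets, 4418 and 5084 cells were retained, with medians of 4812.5 and 4593 UMIs, and 50 barcodes occurred in both libraries, 26 of them among retained cells of both. Clusters were named from markers. SSPC-1-like cells (838 in the control and 1060 in *Piezo1* fl/fl periosteum) were led by *Chad*, *Mfap4* and *Cilp2*, and their 10 leading genes held 3 markers of SSPC-1 (*Egfl6*, *Angptl7* and *Col8a1*) and 3 of tendon (*Chad*, *Fmod* and *Tnmd*). The cluster led by *Mmp13*, *Tnn* and *Ibsp* (746 and 376 cells) scored highest for the SSPC-2 marker list used here, but had 2 of those markers and 3 of mature osteoblasts among its 10 leading genes and is called osteogenic, and a small cluster led by *Col2a1* and *Bglap* and another led by *Gdf10* were left unnamed. Blood-like cells (420 and 523) and endothelial-like cells (175 and 141) were present in spite of the sort. *Piezo1* had few UMIs in the skeletal types, 33 and 3 in osteogenic cells (6.20 against 1.26 CPM) and 11 and 5 in SSPC-1-like cells. The transcripts were tagged at their 3' ends and the floxed exons are not given in the sources used here, so these counts do not check the deletion.

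*Ostn* was highest in osteogenic cells of both libraries, at 614 CPM (593 to 635) in the control and 552 CPM (522 to 582) in *Piezo1* fl/fl periosteum. SSPC-1-like cells were the next type, at 193 CPM (181 to 206) and 132 CPM (122 to 143). The osteogenic level exceeded the SSPC-1-like one by a log2 ratio of 1.67 (1.56 to 1.78) in the control and 2.06 (1.92 to 2.20) in *Piezo1* fl/fl periosteum. Of the genes tested, 0.634% in the control and 0.673% in *Piezo1* fl/fl periosteum likewise had osteogenic cells as their highest type with at least a 2-fold lead.

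These 2 types held nearly all of the transcript. Osteogenic cells were 16.9% of retained cells in the control and 7.40% in *Piezo1* fl/fl periosteum, and they held 75.0% and 65.1% of the *Ostn* UMIs. SSPC-1-like cells held 21.3% and 32.3%. The *Col2a1*-led cluster came next in the control with 75.7 CPM, or 52 UMIs in 4 of its 67 cells, and had 0 UMIs in 46 cells of *Piezo1* fl/fl periosteum, where 3 counts, the floor used here, would be 7.11 CPM. Its UMIs thus came from 4 cells. The 8 mature osteoblast markers summed to 37643 and 51154 CPM in this cluster, above the 5944 and 13905 CPM of osteogenic cells.

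Every other type stood far lower. In the control, blood-like cells had 25 CPM of *Ostn*, lining-like 20.4, endothelial-like 12.3, perineurial-like 11.6, *Gdf10*-led 6.35, fibroblast-like 3.88, pericyte-like 2.33 and tendon-like 0.911 CPM. In the *Piezo1* fl/fl library, lining-like cells had 8.54 CPM, blood-like 7.06, endothelial-like 3.48, pericyte-like 1.83, tendon-like 1.79 and fibroblast-like 1.47 CPM, and *Gdf10*-led cells had 0 UMIs. Neighbours in this lower part of the order did not differ beyond counting error. The 9 UMIs of the lining-like cells in *Piezo1* fl/fl periosteum came from 1 cell, and 13 of the 26 UMIs of the *Retnla*-led macrophage cluster in the control came from 1 cell.

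The share of cells with at least 1 *Ostn* UMI was compared after each cell had been thinned to 2500 UMIs. It was 46.8% (43.1 to 50.5) of osteogenic cells in the control and 41.0% (35.8 to 46.3) in *Piezo1* fl/fl periosteum, and 10.9% and 6.57% of SSPC-1-like cells. Without thinning the shares were 57.2% and 48.7% in osteogenic cells and 13.8% and 8.11% in SSPC-1-like cells. Pericyte-like cells gave the background of free RNA, with thinned shares of 1.22% and 0.977% at medians of 3735.5 and 3948 UMIs per cell, against 5986 and 5321 in osteogenic cells. The osteogenic and SSPC-1-like shares lay above that background in both libraries.

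*Ostn* was unevenly spread within both types. In osteogenic cells the 10% of cells with the most *Ostn* held 53.6% and 55.2% of its UMIs, with up to 85 UMIs in 1 control cell and 40 in 1 cell of *Piezo1* fl/fl periosteum. In SSPC-1-like cells the top 10% held 96.6% and 100%, with up to 57 and 59 UMIs in a cell. A minority of SSPC-1-like cells therefore carried the level of that type. Of 6 skeletal muscle markers, 4 and 2 had a UMI in osteogenic cells, and their sums were 4.70 and 2.10 CPM there and 8.71 and 5.06 CPM in SSPC-1-like cells. The markers include *Des*, and their sum was highest in pericyte-like cells, at 1230 and 435 CPM. It was therefore not read as skeletal muscle RNA there.

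**Figure D1:**
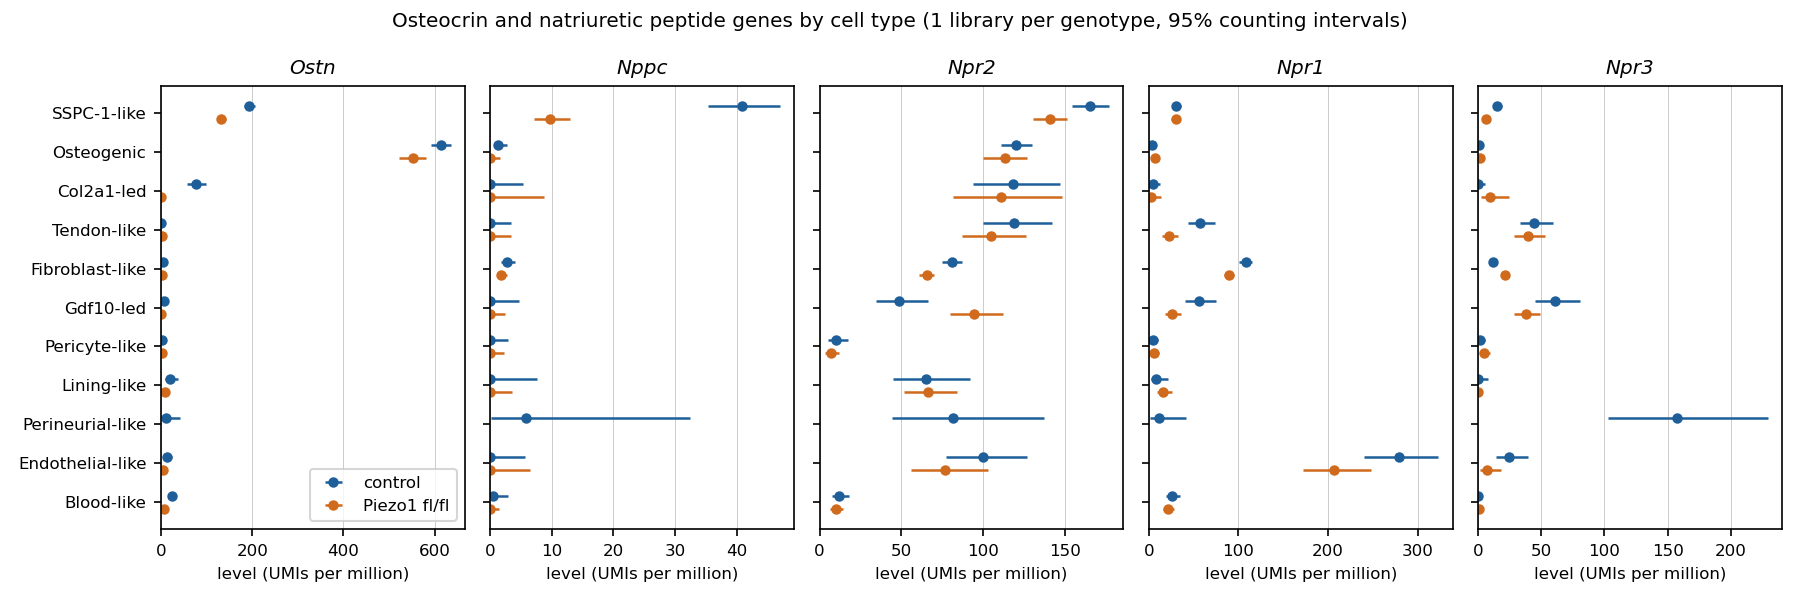
Level of each gene in every cell type (x axis, CPM, linear and with its own range in each panel; y axis, cell type), with points for the control library in blue and the *Piezo1* fl/fl library in orange and bars for 95% counting intervals. *Ostn* peaks in osteogenic cells at 614 and 552 CPM, *Nppc* in SSPC-1-like cells at 40.9 and 9.72 CPM and *Npr1* in endothelial-like cells. *Npr3* peaks in perineurial-like cells, which the control alone had, and in *Piezo1* fl/fl periosteum is highest in tendon-like (39.3 CPM) and *Gdf10*-led cells (37.6 CPM). *Npr2* is spread over most types.

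Within the osteogenic cluster *Ostn* was highest in the cells without *Ibsp*, the gene of bone sialoprotein, a matrix protein of mineralizing bone. In the control, *Ostn* stood at 992 CPM (921 to 1068) in the 291 thinned cells with no *Ibsp* UMI, at 533 CPM (469.5 to 602) in the 193 cells with 1 to 5, and at 350.0 CPM (304 to 402) in the 232 cells with more than 5. In the *Piezo1* fl/fl library the same ranges gave 1539 CPM (1387 to 1702) in 98 cells, 700 CPM (579.9 to 838) in 68 cells and 264 CPM (219 to 315) in 188 cells. The decline with *Ibsp* was present in both libraries and the intervals of the 3 ranges did not overlap in either. The share of cells with *Ostn* declined as well, from 56.4% to 45.6% and 35.8% in the control and from 67.3% to 48.5% and 24.5% in *Piezo1* fl/fl periosteum. The intervals of these shares overlapped between neighbouring ranges, except between 1 to 5 and more than 5 in *Piezo1* fl/fl periosteum (36.2 to 61.0 and 18.5 to 31.3). Those of the lowest and highest ranges did not overlap in either library.

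*Postn*, the gene of periostin and a marker of osteoblast precursors, went from 10775 to 10307 and 10095 CPM over the same ranges in the control, a far smaller change. In *Piezo1* fl/fl periosteum it was lowest in the cells without *Ibsp*, at 7947, 9129 and 8981 CPM. *Npr2* showed no such decline either, at 114, 147 and 109 CPM and at 131, 88.2 and 119 CPM. *Bglap*, a mature osteoblast marker like *Ibsp*, did not follow *Ibsp* in both libraries. It stood at 524, 856 and 843 CPM in the control and at 698, 382 and 647 CPM in *Piezo1* fl/fl periosteum. Cells with more than 5 *Ibsp* UMIs were 232 of 716 in the control and 188 of 354 in *Piezo1* fl/fl periosteum, and the summed mature osteoblast markers of the cluster were 5944 and 13905 CPM. The level of *Ostn* over the whole cluster therefore averages different mixtures of *Ibsp* ranges in the libraries. The ranges are ranges of a count and not cell types.

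**Figure D2:**
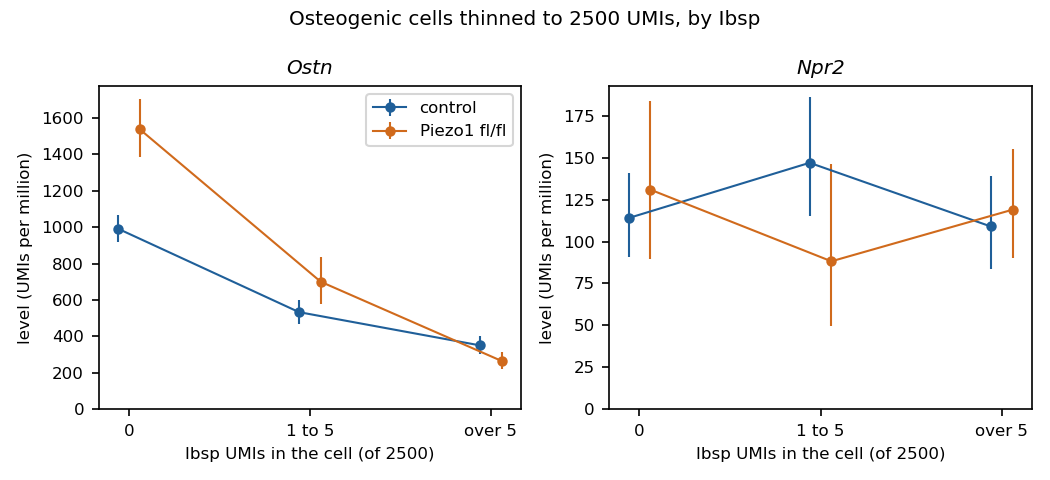
Levels of *Ostn* (left) and *Npr2* (right) in osteogenic cells thinned to 2500 UMIs (y axes, CPM, from 0), by the number of *Ibsp* UMIs in the cell (x axes), with the control in blue, the *Piezo1* fl/fl library in orange and bars for 95% counting intervals. *Ostn* goes from 992 to 350.0 CPM in the control and from 1539 to 264 CPM in *Piezo1* fl/fl periosteum, while *Npr2* stays between 88.2 and 147 CPM.

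At a finer resolution (0.8), with the 5 members still left out of the principal components, SSPC-1-like cells parted into a subcluster whose leading genes after *Ostn* were *Grem1*, *S1pr1* and *Tmtc2* (418 cells in the control and 176 in *Piezo1* fl/fl periosteum) and another led by *Myoc*, *Wif1* and *Sfrp2* (419 and 872 cells). This split was chosen after seeing the data. Next among the leading genes of the *Grem1*-led subcluster came *Bglap2*, *Mmp13* and *Lrrc15*. These and *Ostn* were also among the 10 leading genes of the osteogenic cluster. *Grem1* encodes the BMP antagonist gremlin 1, and *Wif1* and *Sfrp2* encode secreted Wnt-binding proteins. The *Grem1*-led share of SSPC-1-like cells was 49.9% in the control and 16.6% in *Piezo1* fl/fl periosteum.

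*Ostn* lay in the *Grem1*-led subcluster, at 339.9 CPM (318 to 363) in the control and 641 CPM (592 to 693) in *Piezo1* fl/fl periosteum. The *Myoc*-led subcluster had 10.3 CPM (22 UMIs) and 4.87 CPM (19 UMIs). The *Grem1*-led cells also had more *Postn*, at 1172 and 1389 CPM against 247 and 66.1 CPM, and more *Sp7*, the osteoblast transcription factor, at 37.1 and 66.8 CPM against 5.13 and 2.56 CPM. *Tnn* was higher in the *Grem1*-led cells as well, at 636 and 1230 CPM against 145 and 51.5 CPM. *Angptl7*, the study's marker of SSPC-1, was lower in them, at 2201 and 292 CPM against 5238 and 2534 CPM. *Ibsp* was at 52.0 against 66.6 CPM in the control, and in the other order in *Piezo1* fl/fl periosteum, at 119 CPM (98.9 to 143) against 82.3 CPM (73.5 to 91.8).

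Cells with and without an *Ostn* UMI gave the same order as the subclusters for *Grem1* and *Angptl7*. The splits are not independent, since the *Grem1*-led cells held most of the *Ostn*. In the control, the 82 thinned SSPC-1-like cells with *Ostn* had 541 CPM of *Grem1* and the 672 cells without had 55.4 CPM, and in *Piezo1* fl/fl periosteum the values were 305 and 30 CPM in 59 and 839 cells. *Angptl7* was 1927 against 3656 CPM in the control and 346 against 2069 CPM in *Piezo1* fl/fl periosteum. Cells with *Ostn* thus had more *Grem1* and less *Angptl7* in both libraries. *Ibsp* in *Piezo1* fl/fl periosteum went the other way from the subclusters. It was at 33.9 CPM (11.0 to 79.1, 5 UMIs) with *Ostn* and 86.3 CPM (74.2 to 99.8) without. *Bglap* was higher in the cells with *Ostn*, at 346 against 58.9 CPM in the control and 231 against 24.8 CPM in *Piezo1* fl/fl periosteum.

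**Figure D3:**
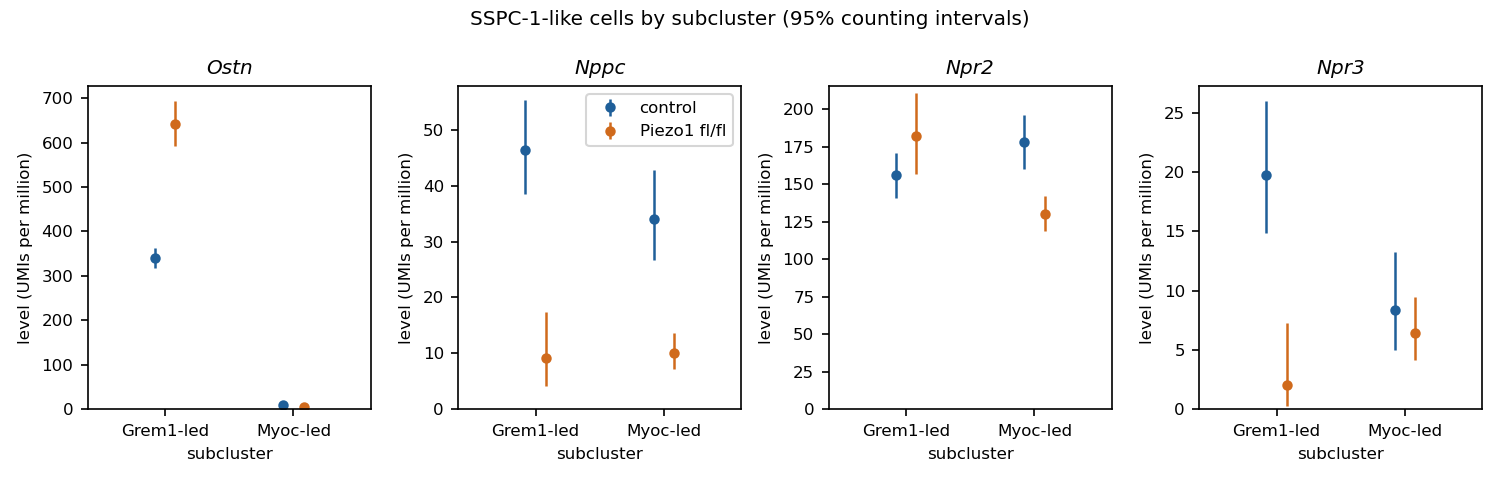
Levels of *Ostn*, *Nppc*, *Npr2* and *Npr3* (y axes, CPM, from 0) in the *Grem1*-led and *Myoc*-led subclusters of SSPC-1-like cells (x axes), with the control in blue, the *Piezo1* fl/fl library in orange and bars for 95% counting intervals. *Ostn* is almost wholly in *Grem1*-led cells (339.9 and 641 CPM), while *Npr2* is at 130.0 to 182 CPM in both subclusters and *Nppc* is lower in *Piezo1* fl/fl periosteum in each.

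*Nppc*, the ligand of NPR2, was a gene of SSPC-1-like cells. It reached 40.9 CPM (35.4 to 47.0, 197 UMIs) in SSPC-1-like cells of the control and 9.72 CPM (7.17 to 12.9, 48 UMIs) in those of *Piezo1* fl/fl periosteum, which was 86.4% and 68.6% of its UMIs. Fibroblast-like cells followed with 22 UMIs in each library (2.66 and 1.79 CPM). Osteogenic cells had 7 UMIs in the control (1.32 CPM) and 0 in *Piezo1* fl/fl periosteum, and perineurial-like and blood-like cells of the control had 1 each. The remaining types had 0 UMIs in both libraries, and 3 counts, the floor used here, would have been 1.83 to 7.11 CPM in them.

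*Nppc* was thus distributed in the opposite direction from *Ostn* between the skeletal types. The osteogenic level lay below the SSPC-1-like one by a log2 ratio of -4.96 (-6.29 to -3.89) in the control and was at least 7.73-fold lower in *Piezo1* fl/fl periosteum, taking 3 counts as the floor. For 0.979% and 0.797% of the genes tested, SSPC-1-like cells were the highest type with at least a 2-fold lead. In the control, that lead was over perineurial-like cells, where the gene had 1 UMI. After thinning, 5.70% (4.16 to 7.61) of SSPC-1-like cells in the control and 2.78% (1.81 to 4.08) in *Piezo1* fl/fl periosteum had an *Nppc* UMI, against 0 of 245 and 0 of 307 pericyte-like cells (exact upper bounds 1.49% and 1.19%).

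*Nppc* did not follow the split that separated *Ostn*. In the control its level was 46.4 CPM (38.6 to 55.3) in *Grem1*-led and 34.0 CPM (26.7 to 42.8) in *Myoc*-led cells, and in *Piezo1* fl/fl periosteum 9.11 CPM (9 UMIs) and 10.0 CPM (39 UMIs). Within the type, however, *Ostn* and *Nppc* were rarely seen in 1 cell of the control: 1 of the 82 thinned cells with *Ostn* had an *Nppc* UMI (1.22%) and 42 of the 672 without (6.25%). In the *Piezo1* fl/fl library the shares were 5.08% and 2.62%, in the other order. The intervals of these shares overlapped in both libraries.

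*Npr2*, the cyclase receptor for C-type natriuretic peptide, was the most evenly spread of the 5. SSPC-1-like cells were highest, at 165 CPM (154 to 177) in the control and 141 CPM (130.3 to 151) in *Piezo1* fl/fl periosteum, and osteogenic cells followed at 120.3 and 113 CPM. In the control, tendon-like cells had 119 CPM, *Col2a1*-led 118, endothelial-like 99.8, perineurial-like 81.4, fibroblast-like 80.8, lining-like 65.2 and *Gdf10*-led 48.3 CPM. In the *Piezo1* fl/fl library, *Col2a1*-led cells had 111 CPM, tendon-like 105, *Gdf10*-led 94.6, endothelial-like 76.6, lining-like 66.4 and fibroblast-like 65.4 CPM. From osteogenic cells downward, no neighbours in the order to this point differed beyond counting error.

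Blood-like and pericyte-like cells stood apart from the rest, with 12 and 10.1 CPM of *Npr2* in the control and 10.0 and 6.71 CPM in *Piezo1* fl/fl periosteum. The log2 ratio of osteogenic over SSPC-1-like cells was -0.46 (-0.61 to -0.31) and -0.32 (-0.53 to -0.11). After thinning, 33.2% and 27.5% of SSPC-1-like cells and 25.1% and 24.3% of osteogenic cells had an *Npr2* UMI, against 1.63% of pericyte-like cells in each library. The receptor was thus found both in the type that held its ligand and in the type that held osteocrin.

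*Npr2* was found in the same cells as *Ostn* about as often as in other osteogenic cells. Of the thinned osteogenic cells of the control, 24.5% (20 to 29.4) of those with *Ostn* and 25.7% (21.4 to 30.4) of those without had an *Npr2* UMI, and in *Piezo1* fl/fl periosteum the shares were 21.4% and 26.3%. Of SSPC-1-like cells, 31.7% with *Ostn* and 33.3% without had *Npr2* in the control, and 42.4% (29.6 to 55.9) and 26.5% (23.5 to 29.6) in *Piezo1* fl/fl periosteum. Of those with an *Nppc* UMI, 41.9% (27.0 to 57.9) in the control had *Npr2*, against 32.6% (29.2 to 36.2) of those without. In the *Piezo1* fl/fl library the order was the opposite, 12% of 25 cells against 27.9%, so ligand and receptor showed no one relation within cells.

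*Npr1*, the receptor for the heart's peptides, was highest in endothelial-like cells, at 279 CPM (240.3 to 323) in the control and 207 CPM (172 to 248) in *Piezo1* fl/fl periosteum. A 2-fold lead of endothelial-like cells was held by 3.91% and 4.83% of the genes tested. The lead of *Npr1* is over fibroblast-like cells as a whole, and there was none of 2-fold over their *Pi16*-led cluster in either library. After thinning, 44.2% and 39.4% of endothelial-like cells had an *Npr1* UMI, against 41.4% and 39.0% of *Pi16*-led cells. Fibroblast-like cells followed at 108 and 89.6 CPM and, as the most numerous type, held 63.1% and 71.7% of the *Npr1* UMIs. Among them the cluster led by *Pi16*, a marker of adventitial fibroblasts, had the most (221 and 187 CPM), ahead of those led by *C4b* (69.0 and 94.6 CPM) and *Sema3e* (49.0 and 53.3 CPM).

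The remaining types had less *Npr1*. Tendon-like cells had 57.4 and 22.3 CPM, *Gdf10*-led cells 55.9 and 26.2, SSPC-1-like cells 30.7 and 30, and blood-like cells 26.1 and 21.6 CPM. Most of the blood-like UMIs were in the *Retnla*-led macrophage cluster (57.8 and 34.3 CPM). Lining-like cells had 8.16 and 16.1 CPM, pericyte-like cells 4.66 and 6.10, *Col2a1*-led cells 4.37 and 2.37, osteogenic cells 3.76 (20 UMIs) and 6.71 (16 UMIs), and the perineurial-like cells of the control 11.6 CPM (2 UMIs). Below fibroblast-like cells, neighbours in the control order differed beyond counting error only between *Gdf10*-led and SSPC-1-like cells, and in *Piezo1* fl/fl periosteum only between lining-like and osteogenic cells. The log2 ratio of osteogenic over SSPC-1-like cells was -3.03 in the control and -2.16 in *Piezo1* fl/fl periosteum. In SSPC-1-like cells of the control, *Npr1* was seen in 2.44% of the cells with *Ostn* and 8.33% of those without, with overlapping intervals, and in *Piezo1* fl/fl periosteum the shares were 8.47% and 7.51%, in the other order.

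*Npr3*, the clearance receptor that osteocrin binds, was nearly absent from osteogenic cells. Osteogenic cells had 2 UMIs in the control (0.376 CPM) and 3 in *Piezo1* fl/fl periosteum (1.26 CPM), in 2 cells of each. SSPC-1-like cells had 14.7 CPM (71 UMIs) and 6.07 CPM (30 UMIs), and after thinning no SSPC-1-like cell of either library had both an *Ostn* and an *Npr3* UMI, among 82 and 59 cells with *Ostn*. That count of 0 limits the share only to at most 4.40% and 6.06% by the exact interval, and cells without *Ostn* had shares of 1.34% in the control and 1.55% in *Piezo1* fl/fl periosteum, so a difference was not detectable at this depth. By subcluster, the *Grem1*-led cells that held most of the *Ostn* had 19.8 CPM of *Npr3* (14.9 to 26.0, 53 UMIs) in the control and 2.02 CPM (2 UMIs) in *Piezo1* fl/fl periosteum, and the *Myoc*-led cells 8.39 and 6.41 CPM.

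The levels of *Npr3* were higher outside the bone-forming types. The 33 perineurial-like cells, found in the control only, had 157 CPM (103 to 229) from 27 UMIs in 7 cells, and 4.03% of the genes tested had a 2-fold lead there. *Gdf10*-led cells had 61.0 and 37.6 CPM and tendon-like cells 44.6 and 39.3 CPM, although 20 of the 49 tendon-like UMIs of the control came from 1 cell and the level was 27.0 CPM without it. Endothelial-like cells had 24.6 CPM (16 UMIs) and 6.97 CPM (4 UMIs), and fibroblast-like cells 11.5 and 21.3 CPM, highest in the *Sema3e*-led cluster (23.5 and 33.6 CPM). *Gdf10*-led and tendon-like cells did not differ beyond counting error in either library. Pericyte-like cells had 1.55 and 4.88 CPM, *Col2a1*-led cells 0 and 4 UMIs, blood-like cells 0 and 1 UMI, and lining-like cells 0 in both.

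Of all *Npr3* UMIs, fibroblast-like cells held 30.6% in the control and 63.5% in *Piezo1* fl/fl periosteum, SSPC-1-like cells 22.9% and 7.30%, and osteogenic cells 0.645% and 0.730%. The log2 ratio of osteogenic over SSPC-1-like cells was -5.29 (-8.37 to -3.39) in the control and -2.27 (-4.63 to -0.59) in *Piezo1* fl/fl periosteum. Across the 5 genes, 1 (*Ostn*) was at least 2-fold higher and 3 (*Nppc*, *Npr1* and *Npr3*) were at least 2-fold lower in osteogenic than in SSPC-1-like cells of each library. Among all genes with at least 10 UMIs over both types, 6.48% were 2-fold higher and 16.7% lower in the control, and 6.78% higher and 14.7% lower in *Piezo1* fl/fl periosteum.

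Other genes whose level rose and fell with these across cell types were sought over 17 points, each a named type of 1 library, as Pearson's r of log2(CPM + 1) among 5540 genes. Points of 1 library share its capture and depth, so r is a description. The closest to *Ostn* were *Tmx1* and *Tnn* (0.91 each) and *Fgfr2*, *Sp7* and *Wnt16* (0.90 each), of which *Tnn*, the gene of tenascin-W, and *Sp7* are SSPC-2 markers in the naming of the types. The closest to *Npr1* were *Acvrl1* (0.96), an endothelial receptor of the BMP family, then *F2rl1* (0.91), *Ace* (0.88), *Cd34* and *Adh1* (0.87 each). The closest to *Npr2* were *Myh10* (0.93), *Dchs1* (0.92), *Krtcap2*, *Plpp5* and *Srpr* (0.90 each), and *Npr3* and *Nppc* were too low for this comparison.

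The rest of the pathway was read from a list of 27 genes for the making, transport, action and breakdown of cGMP and of the peptides. The heart's ligands were nearly missing, with at most 1.46 CPM of *Nppa* and 0.522 CPM of *Nppb*, 1 UMI each, in any type. In the comparison of osteogenic with SSPC-1-like cells, 19 list genes had enough UMIs in the control, of which 3 were at least 2-fold higher and 6 lower, with a median log2 ratio of -0.28 beside -0.25 over all genes. In the *Piezo1* fl/fl library 3 of 18 were higher and 6 lower, with a median of -0.64 beside -0.18. Of all genes, 6.48% were higher and 16.7% lower by as much in the control, and 6.78% and 14.7% in *Piezo1* fl/fl periosteum.

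The 3 higher genes were the same in both libraries. *Fgfr3*, whose FGF signal opposes that of C-type natriuretic peptide in the growth plate, had log2 ratios of 3.69 and 3.82, *Gucy1b1*, a subunit of soluble guanylyl cyclase, 2.41 and 2.37, and *Pde5a*, a cGMP phosphodiesterase, 1.74 and 1.38. *Pcsk6*, *Mme*, *Pde10a* and *Gnai1* were lower in both. *Mme*, the gene of neprilysin, a peptidase that cleaves natriuretic peptides, was at -2.13 and -1.34, *Pde10a*, another phosphodiesterase, at -3.32 and -2.56, and *Gnai1*, an inhibitory G protein subunit, at -1.50 and -1.62. Osteogenic cells thus had less of the peptidase as well as less of the clearance receptor.

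The cGMP machinery for nitric oxide had its highest levels elsewhere. In pericyte-like cells *Gucy1a1* stood at 942 and 811 CPM, *Gucy1b1* at 437 and 443 CPM, the kinase gene *Prkg1* at 408 and 339 CPM, *Pde3a* at 1336 and 1320 CPM and *Pde5a* at 672 and 439 CPM. These are the cells in which all 4 of *Ostn*, *Nppc*, *Npr2* and *Npr1* were at or near their lowest.

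**Figure D4:**
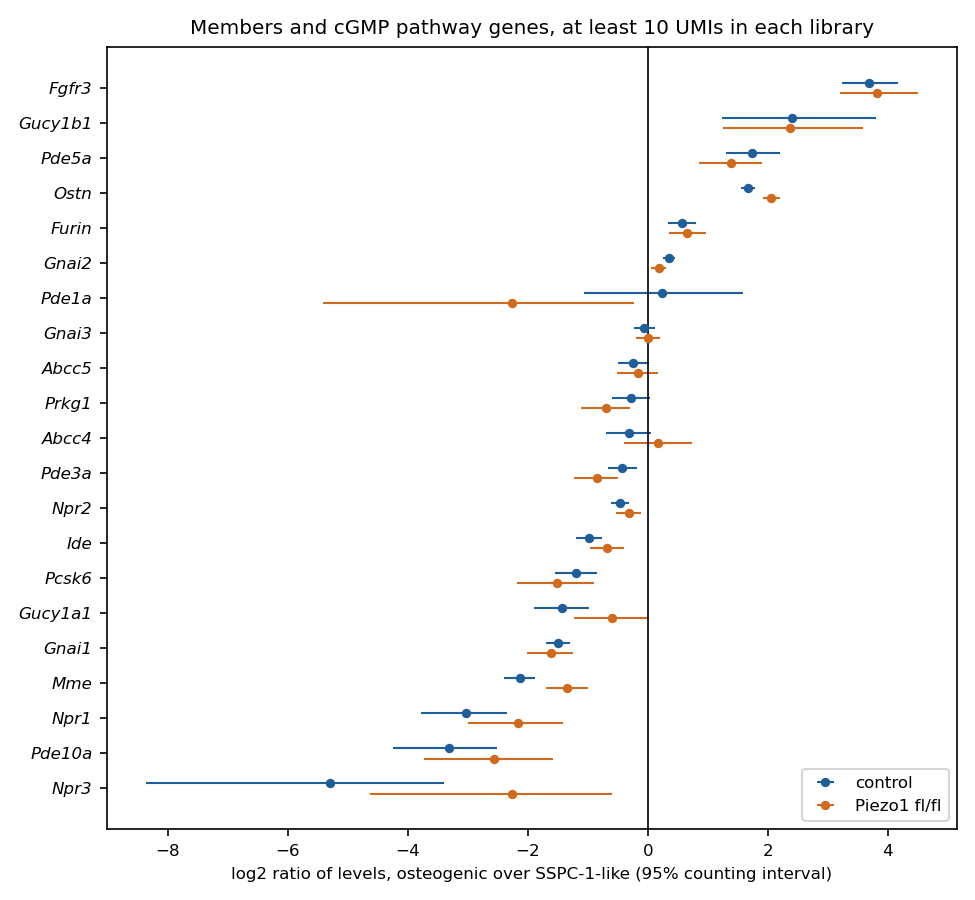
Log2 ratio of the level in osteogenic over SSPC-1-like cells (x axis) for the members and pathway genes with at least 10 UMIs in each library (y axis, ordered by the control), with the control in blue, the *Piezo1* fl/fl library in orange and bars for 95% counting intervals. *Fgfr3* (3.69 and 3.82) and *Ostn* (1.67 and 2.06) lie to the right, and *Npr3* (-5.29 and -2.27) and *Pde10a* (-3.32 and -2.56) to the left. *Nppc* is not drawn, since osteogenic cells of *Piezo1* fl/fl periosteum had 0 UMIs of it.

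Between the libraries, *Nppc* in SSPC-1-like cells was 4.20-fold lower (3.05 to 5.89) in *Piezo1* fl/fl periosteum, a log2 ratio of -2.07 (-2.56 to -1.61). It was lower within both subclusters, by log2 ratios of -2.35 in *Grem1*-led and -1.77 in *Myoc*-led cells. *Npr3* in SSPC-1-like cells was 2.42-fold lower (1.56 to 3.85), *Ostn* 1.46-fold lower (1.32 to 1.61) and *Npr2* 1.18-fold lower (1.06 to 1.30), and *Npr1* did not differ beyond counting error. *Nppc* and *Npr3* were thus the 2 of 5 members at least 2-fold lower in this type, where 6.25% of all genes were lower and 3.29% higher by as much. When each cell was typed by its own marker counts instead of its cluster, *Piezo1* fl/fl periosteum had 127 SSPC-1-like cells with 0 UMIs of *Nppc*, and the log2 ratio of *Npr3* turned to 0.61. The ratio of *Npr3* was -3.29 (-6.38 to -1.37) within *Grem1*-led cells, -0.39 (-1.32 to 0.57) within *Myoc*-led cells and -0.38 over the type as a mean over cells. A single cell held 15 of the 71 control UMIs, and the thinned shares of SSPC-1-like cells with *Npr3* were 1.19% in the control and 1.45% in *Piezo1* fl/fl periosteum, in the other order.

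For *Ostn* the direction depended on which SSPC-1-like cells were compared. Over the type the log2 ratio was -0.54 (-0.69 to -0.40), but in *Grem1*-led cells it was 0.91 (0.77 to 1.06) and in *Myoc*-led cells -1.07 (-2.04 to -0.12). The *Grem1*-led share was 49.9% in the control and 16.6% in *Piezo1* fl/fl periosteum. Its part in the ratio over the whole type was not tested. Summed over 11 dissociation genes, their levels in SSPC-1-like cells were 13960 CPM in the control and 17572 CPM in *Piezo1* fl/fl periosteum, and the median depth of SSPC-1-like cells was 5106 and 3923 UMIs. The part of the dissociation genes and of depth in these ratios was not tested.

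In osteogenic cells the members differed little. *Ostn* was 1.11-fold lower (1.04 to 1.19) in *Piezo1* fl/fl periosteum, *Npr2* had a log2 ratio of -0.09 (-0.30 to 0.11) and *Npr1* of 0.84 (-0.21 to 1.86), and the 3 members with at least 10 UMIs stayed within 2-fold, as 4.27% of all genes were higher and 4.67% lower. The log2 ratio of *Ostn*, -0.15 (-0.25 to -0.06), became 0.09 when each cell was given the same weight. In the cells without *Ibsp* the level of *Ostn* was 992 CPM in the control and 1539 CPM in *Piezo1* fl/fl periosteum, and in those with more than 5 *Ibsp* UMIs 350.0 and 264 CPM. A single direction for *Ostn* in osteogenic cells was therefore not seen. In *Col2a1*-led cells *Ostn* was at least 10.7-fold lower in *Piezo1* fl/fl periosteum, taking 3 counts as the floor. That bound rests on 4 control cells, 1 of which held 27 of the 52 UMIs. Unthinned shares of cells with *Ostn* had overlapping intervals, at 5.97% (1.65 to 14.6) and 0% (0 to 7.71). The share of all genes past 2-fold was not computed for this type.

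The receptors differed between the libraries by type. In fibroblast-like cells, *Npr3* had a log2 ratio of 0.89 (0.54 to 1.24), beside values of 0.66, 0.52 and 0.15 within the *C4b*-led, *Sema3e*-led and *Pi16*-led clusters, the last with an interval that included 0. Of the retained fibroblast-like cells, 328 of 1501 in the control and 826 of 2010 in *Piezo1* fl/fl periosteum were *Sema3e*-led. *Npr1* was -0.27 in fibroblast-like cells but 0.46 (0.24 to 0.68) in the *C4b*-led cluster and -0.24 in the *Pi16*-led one. In tendon-like cells *Npr1* was at -1.36 (-2.09 to -0.67), in endothelial-like cells at -0.43 (-0.78 to -0.09) and in *Gdf10*-led cells at -1.10, where *Npr2* was at 0.97 (0.44 to 1.53). Pericyte-like cells had 2 and 8 UMIs of *Npr3* (1.55 and 4.88 CPM), past 2-fold higher at the smallest count allowed, with 4 of the 8 in 1 cell. Lining-like cells had 10 and 9 UMIs of *Ostn* (20.4 and 8.54 CPM), past 2-fold lower, with 8 and 9 of them in 1 cell. The shares of all genes past 2-fold were not computed for these types, which are outside the comparison that follows. In the 5 other types compared, tendon-like, fibroblast-like, *Gdf10*-led, blood-like and endothelial-like, none of the members with at least 10 UMIs was 2-fold higher. A single member was lower in each of tendon-like (*Npr1*), fibroblast-like (*Ostn*, 32 and 18 UMIs), *Gdf10*-led (*Npr1*) and blood-like cells (*Ostn*, 48 and 19 UMIs), and 2 were lower in endothelial-like cells (*Npr3*, 16 and 4 UMIs, and *Ostn*, 8 and 2 UMIs). For *Ostn*, the thinned shares were 1.25% and 0.489% in fibroblast-like and 1.55% and 0.454% in blood-like cells, near or below the pericyte-like background, and 1 cell held 13 of the 48 and another 11 of the 19 blood-like UMIs. The shares of all genes 2-fold lower and higher were 6.54% and 5.12% in tendon-like, 5.16% and 3.28% in fibroblast-like, 4.58% and 7.14% in *Gdf10*-led, 6.37% and 5.40% in blood-like and 6.29% and 6.33% in endothelial-like cells.

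**Figure D5:**
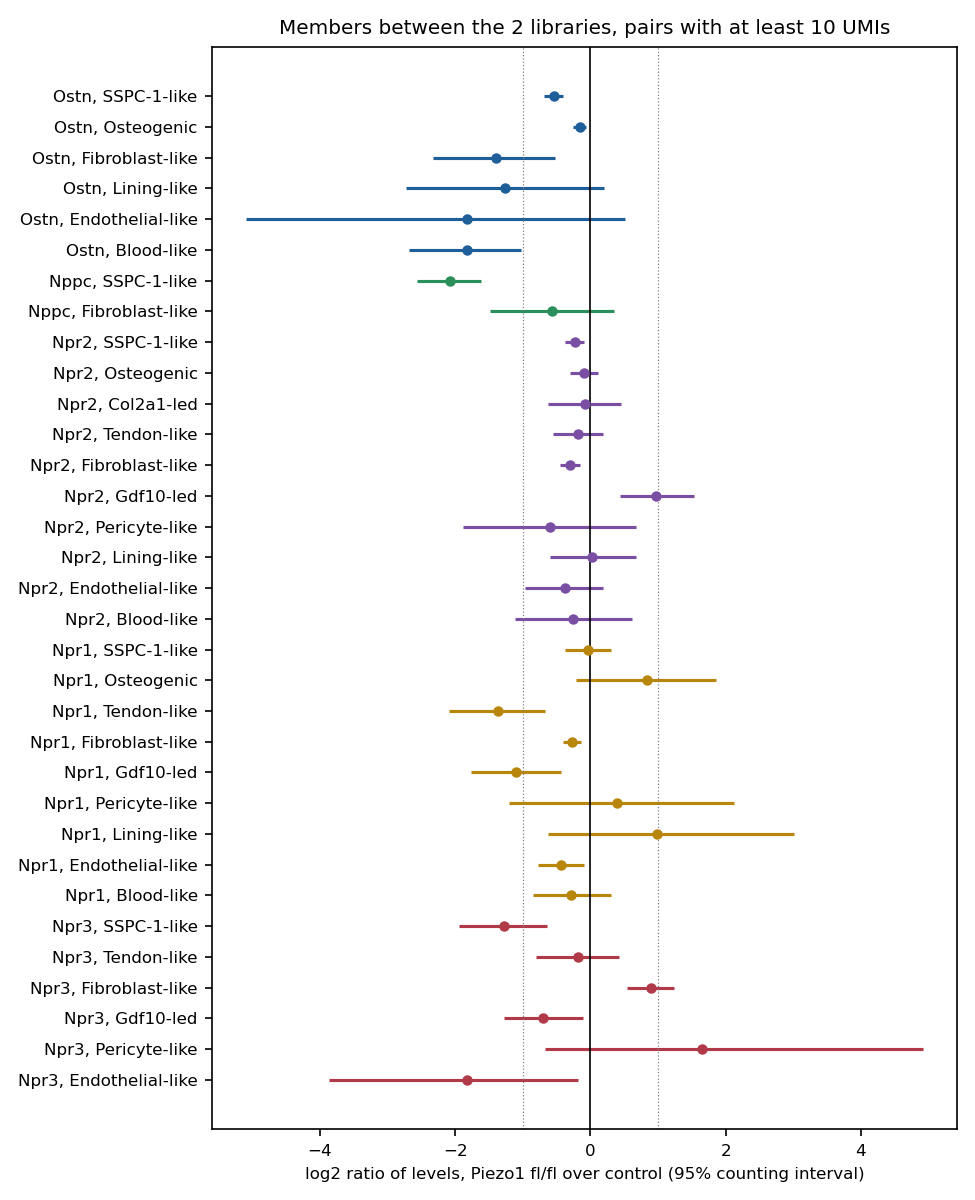
Log2 ratio of the level in the *Piezo1* fl/fl over the control library (x axis) for each member and cell type with at least 10 UMIs over both libraries (y axis), with bars for 95% counting intervals and dotted lines at 2-fold. *Nppc* in SSPC-1-like cells lies at -2.07, *Npr3* in fibroblast-like cells at 0.89 and *Npr2* in *Gdf10*-led cells at 0.97, and the values compare 1 library with 1 library. Pairs with 0 UMIs in a library are not drawn.

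Between the libraries, of 19 list genes measured in SSPC-1-like cells, 1 (*Pde9a*, a cGMP phosphodiesterase, 4 against 20 UMIs) was at least 2-fold higher in *Piezo1* fl/fl periosteum and 1 (*Gucy1a2*, a soluble cyclase subunit) lower, with a median log2 ratio of -0.24 beside -0.05 over all genes. *Mme* was 1.50-fold lower (1.32 to 1.70) and *Gnai1* 1.94-fold lower (1.72 to 2.19). In osteogenic cells none of 17 was higher and 2 (*Pde1a* and *Gnai1*) were lower, with a median of -0.23 beside 0.01. *Fgfr3* was 1.63-fold lower there (1.37 to 1.95), at 112 and 68.7 CPM. In blood-like cells 8 of 16 were lower and none higher, with a median of -0.69 beside -0.10. The 8 included *Mme*, *Prkg1*, *Pde3a*, *Pde5a* and *Fgfr3*, and 6.37% of all genes were lower by as much. With at least 50 UMIs, 8 were tested and 1 (*Pde5a*) was lower, with a median of -0.18 beside -0.09. The 6 chondrocyte markers summed to 1064 CPM in blood-like cells of the control and 16.7 CPM in those of *Piezo1* fl/fl periosteum. Their part in these ratios was not tested. Tendon-like cells had 2 of 15 higher (*Mme* and *Pde3a*) and 2 lower (*Prkg1* and *Prkg2*), with a median of -0.12 beside -0.03. In fibroblast-like cells 1 of 20 (*Gucy1a2*) was lower and none higher, with a median of -0.45 beside -0.08. Endothelial-like cells had 1 of 18 higher (*Pde1a*) and none lower, with a median of 0.14 beside -0.01. In *Gdf10*-led cells none of 16 passed 2-fold in either direction, with a median of -0.03 beside 0.06. The shares of all genes past 2-fold in each of these types are those given above beside the members.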

How the data were processed

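What the authors deposited is, per library, a sparse matrix of raw UMI counts with lists of genes and barcodes. The submitters' notes name fastp, UMI-tools, STAR and Seurat 4.0.3. The genome build, annotation and use of strand are not given in the sources used here, and every barcode had more than 500 UMIs. Of 31253 identifiers, 31107 were found in GENCODE vM21, 30203 with the same symbol.

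The filter kept cells in which 1000 to 5000 genes were detected and mitochondrial UMIs made up less than 25%. Scrublet in scanpy 1.11.5 (expected rate 0.05) called 46 of 5551 barcodes (0.829%) doublets in the control and 67 of 6784 (0.988%) in *Piezo1* fl/fl periosteum, and they were left out. Seurat 5.3.0 in R 4.3.3 clustered the 9502 cells of both libraries together without integration. Genes in at least 10 cells were kept and normalized by LogNormalize with a scale factor of 10000. Of 2000 variable features, 1979 remained without the members, the pathway genes, the dissociation genes and *Piezo1*. They gave 30 principal components, a neighbour graph from the first 20, and Louvain clusters (resolution 0.4, seed 0). Clusters were named from marker lists, and were left unnamed or renamed where leading genes went against the name. Tendon-like clusters needed 2 or more of *Kera*, *Mkx*, *Scx* or *Tnmd* in their top 10 genes, a threshold chosen with the clusters in view. Each library clustered alone, the design first laid down, became an alternative, because in *Piezo1* fl/fl periosteum alone the SSPC-1 cluster had more tendon than SSPC-1 markers among its leading genes.

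UMIs of a gene were summed per type and library and divided by the type's total. Intervals are exact (Poisson for levels, Clopper-Pearson for shares, conditional for ratios). Called means past 2-fold with at least 10 UMIs over both sides. Shares were compared after thinning each cell to 2500 UMIs, which left out 482 and 580 shallower cells. The named genes are the 5 members, the 27 pathway genes and, for members with at least 50 CPM in some type of each library, the 5 genes of highest r. The members and lists were chosen with earlier results of these data known. Genes named beside the subclusters were chosen after their values were seen. The processing alternatives numbered 11 planned and 4 added after seeing the data. The scripts were tested on simulated counts. Values were computed in Python with numpy 2.4.6, scipy 1.17.1 and pandas 2.3.3.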

Additional observations from a re-analysis of the deposited data

Results flagged for a closer look

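The ratio of the libraries went in opposite directions in different cells for 3 members, with intervals on either side of 0, and the differences between the cell types were not tested. *Npr2* had a log2 ratio (*Piezo1* fl/fl over control) of 0.97 (0.44 to 1.53) in *Gdf10*-led cells, beside -0.30 (-0.45 to -0.15) in fibroblast-like and -0.23 (-0.38 to -0.09) in SSPC-1-like cells. *Npr3* had 0.89 (0.54 to 1.24) in fibroblast-like cells, beside -1.28 (-1.94 to -0.64) in SSPC-1-like, -0.70 (-1.28 to -0.11) in *Gdf10*-led and -1.82 (-3.86 to -0.19) in endothelial-like cells, the last from 16 and 4 UMIs. *Ostn* had 0.91 (0.77 to 1.06) in the *Grem1*-led and -1.07 (-2.04 to -0.12) in the *Myoc*-led subcluster of SSPC-1-like cells, the latter from 22 and 19 UMIs. *Gdf10*-led cells, which stood at 109 and 225, had 21651 CPM of dissociation genes in the control and 13147 in *Piezo1* fl/fl periosteum, and their part in the *Npr2* ratio was not tested.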

How the results depend on the processing

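No paired analysis was possible because each genotype has 1 library. Of 608 values recomputed under the alternatives, 498 moved by less than their counting interval (shares of all genes by up to 1.5 times), 105 moved by more and 5 changed direction. Depth limits *Nppc* outside SSPC-1-like and fibroblast-like cells, where it had at most 7 UMIs in a type, and *Npr3* in osteogenic cells, with 2 and 3 UMIs.

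Typing each cell by its own markers (249 and 127 SSPC-1-like cells, 716 and 409 osteogenic cells) changed most. *Ostn* in osteogenic cells then had 557 CPM in the control and 425 CPM in *Piezo1* fl/fl periosteum, in 47.8% and 34.5% of cells, and its log2 ratio over SSPC-1-like cells was 2.05 and 6.40. *Nppc* in SSPC-1-like cells was at 52.1 and 0 CPM and *Npr2* in *Piezo1* fl/fl periosteum at 121 CPM. *Npr3* in tendon-like cells was at 24.8 and 18.0 CPM and *Npr1* in endothelial-like cells of *Piezo1* fl/fl periosteum at 165 CPM. The ratio between the types was -2.05 and -0.09 for *Npr1*, -2.37 for *Npr3* in the control, and reversed to 0.02 for *Npr2* in *Piezo1* fl/fl periosteum. Between the libraries, *Ostn* was at -4.74 in SSPC-1-like and -0.39 in osteogenic cells, *Npr2* at -0.50, *Npr3* reversed to 0.61 in SSPC-1-like cells and was at 0.09 in fibroblast-like cells. The cause was not tested.

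For *Ostn* in osteogenic cells (control, then *Piezo1* fl/fl), resolution 0.2 gave 553 and 468 CPM, ratios over SSPC-1-like cells of 1.51 and 1.79, and shares of 53.0% and 43.2%. Under 10% mitochondrial UMIs the levels were 576 and 482 CPM, the ratios 1.55 and 1.82 and the ratio of libraries -0.26. Cells with 500 to 6000 genes gave 567 CPM and 50.3% in the control, and no filter on genes 575 and 513 CPM. Without mitochondrial, ribosomal protein and hemoglobin genes in the total, *Ostn* was at 667 and 608 CPM and *Npr2* in SSPC-1-like cells at 182 and 155 CPM. Thinning gave 46.8% and 41.0%. With called doublets kept, the ratio of libraries for *Ostn* in SSPC-1-like cells was -0.69.

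As a mean over cells, *Ostn* was at 675 and 716 CPM, its ratios over SSPC-1-like cells 1.79 and 2.75 and its ratios of libraries 0.09 (reversed) in osteogenic and -0.87 in SSPC-1-like cells. *Npr3* was then at 25.5 CPM in tendon-like cells of the control and its ratio of libraries -0.38 in SSPC-1-like cells.

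Of the alternatives chosen after seeing the data, each library clustered alone gave *Ostn* 539 and 509 CPM in osteogenic cells, 52.5% of cells in the control, ratios over SSPC-1-like cells of 1.30 and 1.88, and ratios of libraries in fibroblast-like cells of -0.09 for *Npr1* and 0.29 for *Npr3*. Without its highest cell, *Npr3* in tendon-like cells of the control was at 27.0 CPM. Within *Grem1*-led cells the ratios of libraries reversed to 0.91 for *Ostn* and 0.23 for *Npr2* and were -3.29 for *Npr3*, and within *Myoc*-led cells they were -1.07, -0.45 and -0.39. Leaving out the cells whose barcodes occur in both libraries changed no direction.

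With at least 50 UMIs the shares of all genes 2-fold higher and lower between the libraries were 1.43% and 2.73% in SSPC-1-like, 1.69% and 1.56% in osteogenic, 1.89% and 2.55% in tendon-like, 1.17% and 2.19% in fibroblast-like, 1.63% and 1.97% in endothelial-like, 1.81% and 2.08% in *Gdf10*-led and 2.90% and 2.17% in blood-like cells. Of the calls on members, both in endothelial-like cells then had too few UMIs, as had *Nppc* and *Npr3* in the comparison of osteogenic with SSPC-1-like cells of *Piezo1* fl/fl periosteum, where *Npr1* was the 1 lower among 3 tested. The other 2-fold calls on members in the types compared still had enough UMIs. This limit selects genes and leaves each ratio as it was, so it cannot check their direction.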
